A study of Mus musculus with 24 samples.

Results

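Mouse embryonic stem cells labelled as an Atf3 knockout (KO) were compared between day 3 and day 6 of differentiation. Over this interval the cultures lost stem cell transcripts and gained those of lateral and extraembryonic mesoderm and of endoderm. The comparison used 6 of the 24 RNA-seq libraries of the series, 3 of KO cells at day 3 and 3 of KO cells at day 6. Of the 53465 genes in the deposited table, 12587 had an FPKM (fragments per kilobase of gene, scaled by library) of at least 1 in at least 3 of these 6 libraries and were tested. Wild-type (WT) cells at the same days, 3 libraries each, served for the comparison between genotypes, and days 0 and 9 of both genotypes gave the surrounding time course. Both genotypes had been kept as stem cells with leukaemia inhibitory factor, CHIR99021 and PD0325901 in serum medium, and then differentiated. The differentiation medium, the edited part of Atf3 and the number of KO clones are not stated in the labels. Separate cultures for the 3 libraries of each group are not stated either, so p-values measure the spread among the libraries alone, and that spread may be technical. The tissue and the cell type were labelled as embryonic and as Mes cells, without a named lineage.

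Atf3 encodes a stress-inducible basic leucine zipper factor of the ATF/CREB family that pairs with proteins of the AP-1 network. Pluripotent cells of the epiblast pass through a formative and a primed state before they enter the primitive streak, from which mesoderm and endoderm arise. The first mesoderm to leave the streak forms the extraembryonic membranes and the yolk sac, where the first red cells express embryonic globins. In bulk RNA, fewer cells of a type and less RNA per cell cannot be told apart.

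Depth, as reads recovered from the deposited values, was 12272963 to 17293235 reads in the 6 KO libraries and 7855614 to 25274389 over all 24. Between 6.10% and 27.9% of the reads of the 6 KO libraries lay in rRNA-type genes, with 15.4%, 25.01% and 27.9% at day 3 and 18.6%, 11.6% and 6.10% at day 6. The library labelled KO day 6 replicate 3 stood apart from the other 2 of its group in a way that followed exon length. Its log2 level was below the mean of replicates 1 and 2 by a median of -0.86 over the 331 genes with up to 1000 bases of exon, and above it by 0.35 over the 3160 genes with over 6000 bases. Counts of calls that moved by over 1.5 times without that library are given with and without it. Fits with the length trend of each library removed, and with equal sums outside the rRNA-type genes, are given below as alternatives. Beyond these refits, the part of exon length and of the rRNA-type share in these results was not tested.

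**Figure D1:**
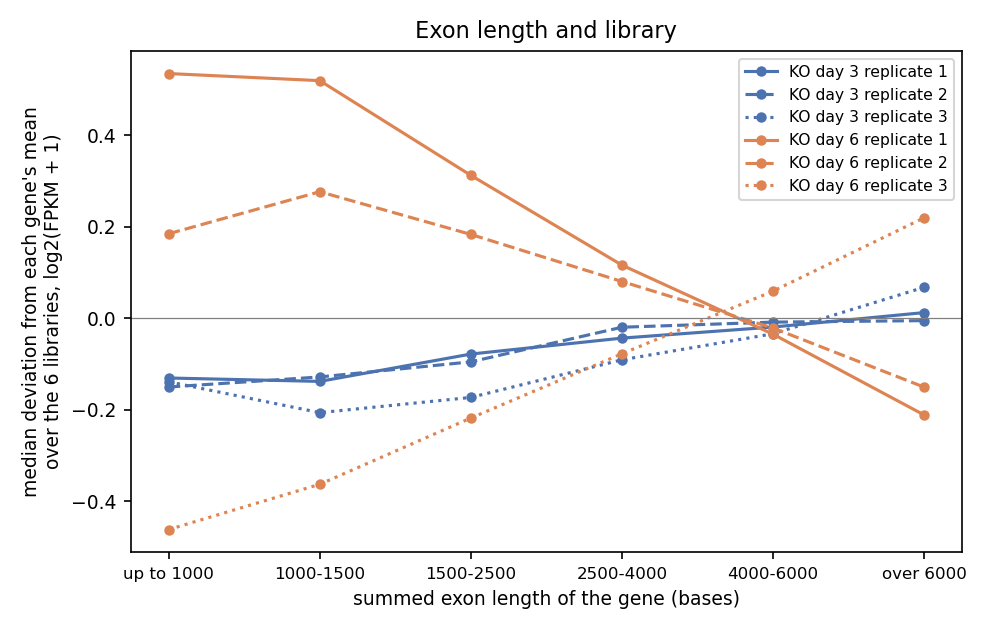
Median deviation of each of the 6 KO libraries from the gene's mean over the 6, in log2(FPKM + 1), against the summed exon length of the gene in bases (points are medians of genes in 6 length classes, lines join 1 library). At up to 1000 bases the KO day 6 libraries sit at 0.54, 0.18 and -0.46, while the 3 day 3 libraries lie between -0.15 and -0.13.

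As a check of the labels, Atf3 itself was read first (ENSMUSG00000026628, on the minus strand of mm10 chromosome 1 from 191170296 to 191218039). KO day 3 libraries had 0.248, 0.447 and 0.611 FPKM and KO day 6 libraries 0.343, 0.578 and 4.17 FPKM. WT libraries had 5.03, 15.8 and 10.5 FPKM at day 3 and 12.7, 23.99 and 10.9 FPKM at day 6. Every KO library was below every WT library of these days, but the library labelled KO day 6 replicate 3 was several times higher than the other 5 KO libraries. With an FPKM of at least 1 in only 1 of the 6 libraries, Atf3 was not among the genes tested. Since the edited part is not known, transcript level may not show the state of the gene.

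Across the KO step from day 3 to day 6, 4332 of 12587 genes (34.4%) differed at an adjusted p under 0.05 by limma. Of these, 2362 (18.8% of those tested) were higher at day 6 and 1970 (15.7%) were lower, and 2082 changed by at least 1 on the log2 scale. The values of both days did not overlap for 4733 genes (37.6%). The steepest rises included genes of mesoderm (Hand1), embryonic red cells (Hbb-bh1, Hba-x, Hba-a1), endoderm (Spink1, Ttr) and matrix (Col1a1), and the steepest falls included the pluripotency genes Pou5f1, Utf1 and Tdgf1. Among rises, the 12 named by rule were Hand1, Hbb-bh1, Spink1, H19, Hba-x, Ttr, Hba-a1, Acta2, Col1a1, Apom, S100g and Pmp22, with log2 changes of 6.25 down to 4.32. The 12 falls were Pim2, Platr10, Foxi3, Utf1, Pou5f1, Pdzd4, Tdgf1, Cbr3, Dnmt3l, Enpp2, Ina and Trh, from -5.18 to -3.56. Of these 24 calls, 23 held under every alternative processing tried, and S100g was lost when only the 6 libraries were fitted. The balance of directions depended on scaling: 54.5% of calls were higher as deposited, 76.0% (2259 of 2973) after scaling to TPM, and 37.5% (1651 of 4405) with equal sums outside the rRNA-type genes. The median change of all genes was 0.02, 0.28 and -0.21 in these settings. Without the library labelled KO day 6 replicate 3, 6052 genes (48.1%) were called, 3209 (25.5%) higher and 2843 (22.6%) lower, and 4076 of the 4332 remained. S100g, a calcium-binding protein gene of intestine and yolk sac, leaned on the other libraries most: it had 1.45, 1.61 and 2.29 FPKM at day 3 and 245, 149 and 3.72 FPKM at day 6.

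Genes are described below by 36 lists of cell types, pathways and cell functions, which share members and hold 840 genes, of which 603 were tested. Of these 603, 74 were under 1 FPKM in all 3 day 3 libraries and entered the test through day 6 alone, so that they had to differ, and the counts of their lists describe the genes that passed. A list's counts are read against the 18.8% of all genes higher and 15.7% lower, and its median log2 change against 0.02. Values in parentheses after a gene are its log2 change in KO cells from day 3 to day 6, with the SE where given. Genes said to have risen or fallen had an adjusted p under 0.05 by limma. Among list members, those named beyond the 4 strongest calls in each direction and the stem cell markers were chosen after their values were seen.

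**Figure D2:**
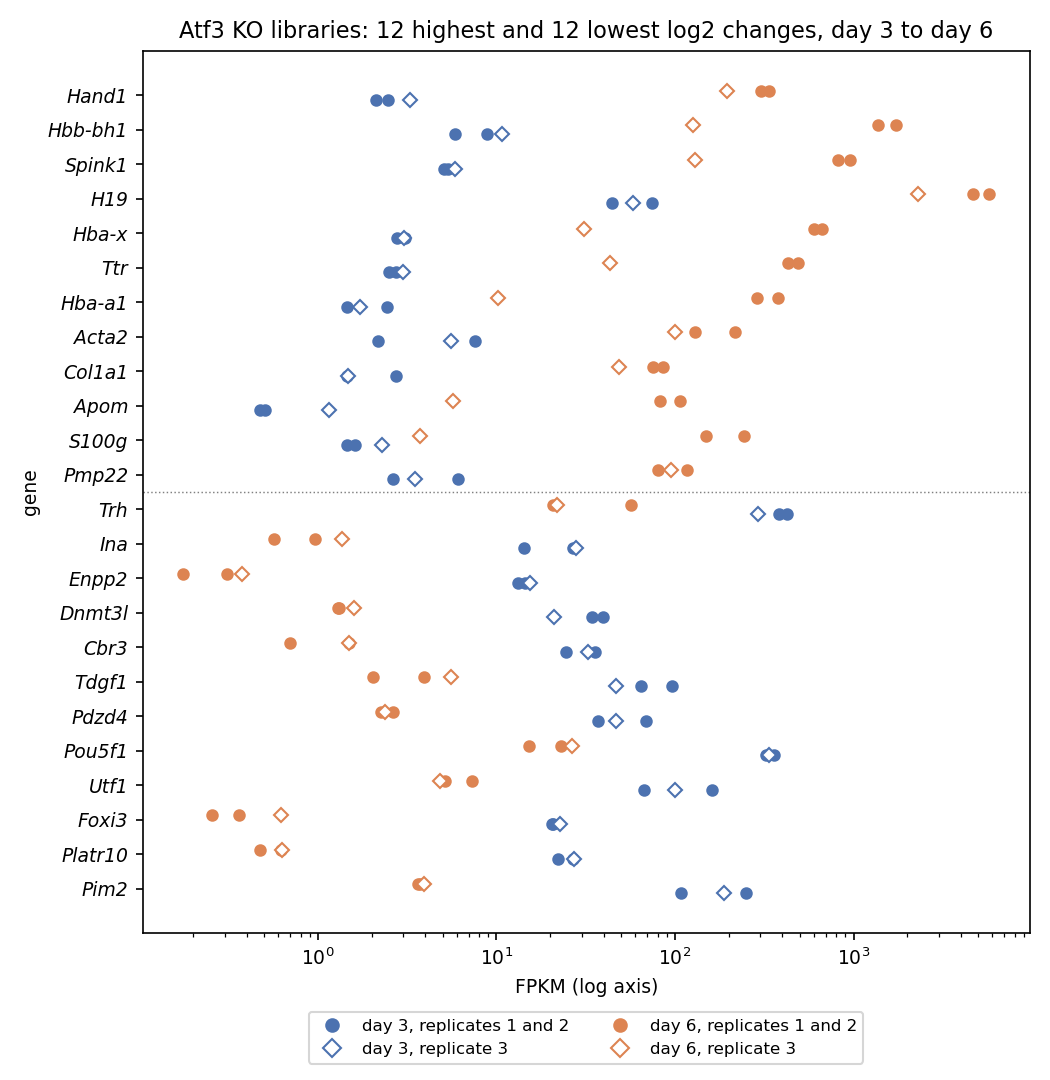
FPKM (log axis) of the 12 genes with the highest and the 12 with the lowest log2 change between KO day 3 and KO day 6, 1 point per library, with replicate 3 of each day as an open diamond. The day 6 diamonds of Hbb-bh1, Hba-x, Hba-a1, Ttr, Apom, S100g and Spink1 lie between the day 3 points and the other 2 day 6 points. Those of Hand1, H19, Acta2 and Col1a1 also lie below the other 2 day 6 points, by less. The day 6 diamonds of the 12 falling genes lie close to the other day 6 points.

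Stem cell transcripts fell. Of 26 tested genes of naive pluripotency, 17 (65.4%) were lower at day 6, 1 was higher and 8 did not pass, with a median log2 change of -1.84 against 0.02 over all genes. Pou5f1 (mm10 chromosome 17, 35506018 to 35510772), which encodes the core pluripotency factor OCT4, had 325, 358 and 335 FPKM at day 3 and 22.996, 15.3 and 26.5 FPKM at day 6. Day 6 libraries were an order of magnitude below day 3 without overlap, and the log2 change was -3.95 ± 0.44 (SE, adjusted p 6.62e-07, limma). Utf1, a chromatin-associated factor of undifferentiated cells, had 66.7, 162 and 100.3 FPKM at day 3 and 7.298, 5.16 and 4.81 FPKM at day 6 (-3.96 ± 0.66, adjusted p 8.98e-05). Tdgf1, which encodes the Nodal co-receptor CRIPTO, had 95.96, 64.7 and 46.9 FPKM at day 3 and 3.91, 2.02 and 5.58 FPKM at day 6 (-3.87 ± 0.36, adjusted p 6.12e-08). Both were lower in every day 6 library than in any day 3 library. Nanog, the homeodomain factor of the naive state, went from 65.2, 26.04 and 19.97 to 5.64, 2.66 and 5.67 FPKM, with the highest day 3 level in replicate 1. Among the other stem cell markers, Sox2 changed by -2.77, Dppa5a by -2.97, Esrrb by -1.65 and Zfp42 by -1.49, all lower at day 6. Dppa4, a partner of Dppa2 in zygotic and germ cell gene activation, changed by -3.25 ± 0.31.

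Not all of the list moved with Pou5f1. Tfcp2l1 had 2.6998, 2.79 and 2.57 FPKM at day 3 and 3.34, 2.54 and 1.604 FPKM at day 6 (-0.11, adjusted p 0.747). Klf4 had 2.86, 7.25 and 7.56 FPKM at day 3 and 5.298, 5.29 and 26.97 FPKM at day 6, where the library labelled KO day 6 replicate 3 was the highest of the 6 (0.68, adjusted p 0.315). The 1 member that rose was Tbx3, a T-box factor also found in mesoderm and endoderm (1.63 ± 0.39). Summed over the list, levels were 1248, 1427 and 1217 FPKM at day 3 and 357, 263 and 287 FPKM at day 6, and the library labelled KO day 6 replicate 3 differed from the other 2 by a median of 0.06. The median in WT cells over the same days was -1.73.

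Genes of the formative and primed epiblast followed, with 12 of 18 lower, 2 higher and a median of -1.67. Pim2, a serine/threonine kinase, had the steepest fall of all named genes. Its levels were 108, 250.2 and 188 FPKM at day 3 and 3.73, 3.64 and 3.92 FPKM at day 6, and the log2 change was -5.18 ± 0.46 (adjusted p 3.32e-08). The 3 day 6 values were nearly equal, and each was far under the lowest day 3 value. Dnmt3b, a de novo DNA methyltransferase, went from 162, 356 and 239.6 to 22.1, 22.4 and 21.6 FPKM (-3.39 ± 0.36). Zic2, a zinc finger factor of the primed epiblast, changed by -2.79 ± 0.35, and Tcf15 by -2.50 ± 0.42. Sox4 (1.62 ± 0.46) and Cldn6 (0.95 ± 0.26), a tight junction claudin, were the members that rose. The call of Sox4 was lost without KO day 3 replicate 1 or KO day 6 replicate 1, and that of Cldn6 without KO day 6 replicate 1 or 2.

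DNA methylation genes split, with 6 of 14 lower and 4 higher. Dnmt3l, the catalytically inactive partner of the de novo enzymes, had 34.2, 39.4 and 21.1 FPKM at day 3 and 1.298, 1.31 and 1.59 FPKM at day 6 (-3.72 ± 0.40, adjusted p 3.93e-07). Dnmt3a (-1.57 ± 0.26) and Tet1 (-1.56 ± 0.24), a 5-methylcytosine oxidase, were also lower. Mbd2 (1.49 ± 0.24), Tet3 (1.03 ± 0.21) and Zfp57 (0.96 ± 0.21), which protects imprints, were higher. Germline genes had low levels: of 6 tested, 4 fell and Prdm1 rose, and the piRNA pathway gene Mael went from 4.47, 3.19 and 3.46 to 0.0533, 0.0625 and 0.0573 FPKM. The Prdm1 call was lost without KO day 3 replicate 1, KO day 3 replicate 2 or KO day 6 replicate 2.

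Other falling genes lay outside the lists. Platr10, a pluripotency-associated long non-coding RNA, had 22.01, 26.9 and 27.2 FPKM at day 3 and 0.476, 0.621 and 0.626 FPKM at day 6. Foxi3, a forkhead factor of ectodermal appendages, had 20.7, 20.4 and 22.7 FPKM at day 3 and 0.3603, 0.254 and 0.6199 FPKM at day 6 (-3.99 ± 0.24). Enpp2, which encodes autotaxin, had 14.4, 13.2 and 15.5 FPKM at day 3 and 0.176, 0.309 and 0.378 FPKM at day 6. None of these 3 genes reached 1 FPKM in a day 6 library. Pdzd4 (-3.88 ± 0.36), the carbonyl reductase gene Cbr3 (-3.84 ± 0.28) and the neuronal intermediate filament gene Ina (-3.58 ± 0.30) fell as well.

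Mesoderm genes rose. In the list of lateral and extraembryonic mesoderm, 22 of 23 tested members (95.7%) were higher at day 6 and 1, the mesothelial and kidney factor Wt1 (-1.22 ± 0.31), was lower. Of the 23, 11 had entered through day 6 alone, Msx2 among them, and had to differ. The median was 2.55, and 2.64 without the library labelled KO day 6 replicate 3. Hand1 (mm10 chromosome 11, 57828705 to 57832818), a basic helix-loop-helix factor of extraembryonic mesoderm, heart and trophoblast, had 2.46, 2.12 and 3.26 FPKM at day 3 and 337, 304 and 196 FPKM at day 6. This was the largest log2 change of the step among named genes, 6.25 ± 0.25 (adjusted p 7.21e-13), and the lowest day 6 library was far above the highest day 3 library. Bmp4, a ligand that patterns posterior mesoderm, had 1.47, 1.19995 and 1.69 FPKM at day 3 and 32.3, 28.04 and 33.5 FPKM at day 6 (3.72 ± 0.20, adjusted p 3.60e-11). Msx2, a homeobox target of BMP signalling, had 0.407, 0.353 and 0.424 FPKM at day 3 and 18.2, 20.2 and 22.9 FPKM at day 6 (3.94 ± 0.21). The day 6 values of both were within a narrow range. Pmp22, a membrane protein of mesenchyme and myelin, had 6.08, 2.62 and 3.48 FPKM at day 3 and 80.04, 116 and 95.02 FPKM at day 6 (4.32 ± 0.27).

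Markers of the streak itself were less uniform. Of 12 tested, 5 were higher and 2 lower, with a median of 0.55, and 4 of the 12 had entered through day 6 alone. Cdx2, a posterior and trophoblast homeobox factor, had 1.63, 1.14 and 0.841 FPKM at day 3 and 50.5, 38.3 and 18.4 FPKM at day 6 (3.96 ± 0.26), and Evx1, a posterior streak factor, had 0.2599, 0.0446 and 0.102 FPKM at day 3 and 5.62, 3.43 and 4.55 FPKM at day 6 (2.27 ± 0.26). Foxa2, a factor of the anterior streak and endoderm, changed by 1.89 ± 0.30. Wnt8a changed by -0.96 ± 0.18 and Sp5, a Wnt target, by -0.74 ± 0.24. The Sp5 call was lost without KO day 3 replicate 2 or 3 or KO day 6 replicate 1 or 2. T, the brachyury gene of the streak, had 1.62, 0.777 and 1.17 FPKM at day 3 and 1.28, 0.164 and 4.35 FPKM at day 6, and Eomes had 2.01, 1.24 and 0.792 FPKM at day 3 and 0.844, 0.939 and 1.89 FPKM at day 6. Neither passed the test between the days (0.16 and -0.07, adjusted p 0.863 and 0.8903), and the library labelled KO day 6 replicate 3 was the highest of its group for both. Mesp1, the factor of the first mesoderm to leave the streak, stayed under 1 FPKM in all 6 libraries.

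Paraxial mesoderm was hardly seen. Of 18 listed genes 4 passed the filter, and 3 of them, Dll1 (-2.81 ± 0.59), Tcf15 and Dll3 (-0.79 ± 0.23), were lower at day 6. The Dll3 call was lost without KO day 3 replicate 2 or KO day 6 replicate 2. Hox genes, which mark position along the body axis, were near 0 at day 3: 15 of 17 tested rose, none fell and 17 listed genes did not pass the filter. Of the 17 tested, 15 had entered through day 6 alone, so that these counts are no support for the direction. Hoxd9 had 0.02501, 0.0902 and 0.0343 FPKM at day 3 and 12.1, 5.73 and 5.34 FPKM at day 6 (2.97 ± 0.25), and Hoxb6 had 0.0272, 0.0327 and 0.0745 FPKM at day 3 and 4.56, 3.199 and 3.16 FPKM at day 6 (2.14 ± 0.15). Hoxb2 changed by 1.92 ± 0.19 and Hoxb8 by 1.84 ± 0.22.

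Embryonic globins rose, with large differences between libraries. The upstream sequences of 3 globin genes are shown because these genes moved together, and that of Pou5f1 because it moved the other way. Each is the 120 bases before the start in the RefSeq GRCm38.p6 table, 5′ to 3′ on the gene's strand, with capitals for a CCAAT box (on the other strand ATTGG) or a TATAAA box. No sequence is shown for Hbb-bh1.
Hba-x (chr11:32276480-32276599, plus strand): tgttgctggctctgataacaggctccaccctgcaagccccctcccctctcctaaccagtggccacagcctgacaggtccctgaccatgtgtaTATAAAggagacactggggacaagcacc
Hba-a1 (chr11:32283552-32283671, plus strand): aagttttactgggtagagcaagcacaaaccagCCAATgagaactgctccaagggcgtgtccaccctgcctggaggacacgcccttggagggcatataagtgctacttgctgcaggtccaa
Hbb-y (chr7:103853208-103853327, minus strand): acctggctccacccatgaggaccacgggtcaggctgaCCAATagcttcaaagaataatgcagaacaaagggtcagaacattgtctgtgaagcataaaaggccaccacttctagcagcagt
Pou5f1 (chr17:35505912-35506031, plus strand): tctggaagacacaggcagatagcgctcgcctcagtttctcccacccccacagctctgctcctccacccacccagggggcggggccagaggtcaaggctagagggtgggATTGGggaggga
Within 250 bases before to 50 after the start, CCAAT or its complement lies in 37.4% of 32851 promoter windows and TATAAA or TTTATA in 13.6%. CCAAT was found for Hba-a1 and Hbb-y, TATAAA for Hba-x and the complement ATTGG for Pou5f1. For GATA factors only the spelling AGATAA (complement TTATCT, in 11.2% of windows) was searched, and for the CACCC box only CCACACCC (complement GGGTGTGG, 3.56%). Neither of these exact spellings was in the windows of the 3 globin genes. Other spellings were not searched, such as the tgataa printed for Hba-x and the ccaccc printed for all 3, so absence of such sites cannot be read from this. These are matches of letters only.

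Of 25 listed genes of red cells and haem synthesis 11 were tested, and 7 were higher and 1 was lower at day 6, with a median of 2.33. Entry through day 6 alone held for 2 of the 11. Hbb-bh1, an embryonic beta-type globin on mm10 chromosome 7, 103841637 to 103843164, had 5.84, 8.801 and 10.7 FPKM at day 3 and 1376, 1722 and 126 FPKM at day 6. Replicates 1 and 2 were 2 orders of magnitude above day 3, and the library labelled KO day 6 replicate 3 lay between, without overlap with day 3. The log2 change was 6.18 ± 0.75 (adjusted p 1.99e-06) and 7.38 without that library. Hba-x, the embryonic alpha-type zeta globin, had 2.79, 3.08 and 3.04 FPKM at day 3 and 599.6, 668 and 31.1 FPKM at day 6 (5.88 ± 0.82; 7.32 without the same library). Hba-a1, an alpha globin that shares near-identical sequence with Hba-a2, had 1.45, 2.45 and 1.71 FPKM at day 3 and 376, 287 and 10.2 FPKM at day 6 (5.23 ± 0.92), so its level is uncertain. Hbb-y, the epsilon-type embryonic globin, had 1.52, 0.507 and 1.16 FPKM at day 3 and 71.7, 86.5 and 2.82 FPKM at day 6 (3.85 ± 0.78). In all 4 the library labelled KO day 6 replicate 3 was about an order of magnitude or more below the other 2 of its group, and the changes of Hba-a1 and Hbb-y without it were 6.86 and 5.31.

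Other erythroid genes were highest in the same libraries. Alas2, the erythroid enzyme of the first step of haem synthesis, had 0.245, 0.347 and 0.335 FPKM at day 3 and 9.296, 10.98 and 1.32 FPKM at day 6 (2.33). Alas2 entered the test through day 6 alone, so that it had to differ. Gata1 and Klf1, master factors of the erythroid programme, did not pass the filter and are given as values only. Gata1 had 0.197, 0.263 and 0.12005 FPKM at day 3 and 2.39, 5.15 and 0.916 FPKM at day 6, and Klf1 had 0.419, 0.336 and 0.4304 FPKM at day 3 and 3.32, 5.73 and 0.551 FPKM at day 6. In both, the library labelled KO day 6 replicate 3 was the lowest of its group. Slc25a38, the mitochondrial glycine carrier of haem synthesis, was the member that fell (-0.73 ± 0.20). Its call was lost without KO day 3 replicate 2. Fech did not pass (adjusted p 0.368) and nor did the transferrin receptor gene Tfrc (adjusted p 0.354).

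Genes of blood progenitors and platelets rose to a few FPKM. Tal1, the factor that starts the blood programme in mesoderm, had 0.134, 0.235 and 0.0835 FPKM at day 3 and 3.099, 4.61 and 1.05 FPKM at day 6 (1.65 ± 0.23). Tal1 entered the test through day 6 alone, so that it had to differ. Runx1, needed for definitive blood, had 0.181, 0.304 and 0.359 FPKM at day 3 and 1.92, 2.97 and 2.52 FPKM at day 6 (1.43 ± 0.16). The platelet integrin genes Itgb3 (2.37 ± 0.23) and Itga2b (1.47 ± 0.21) rose, as did Csf1r (0.76 ± 0.19), and Coro1a, an actin regulator of white cells that stem cells also express, changed by -3.11 ± 0.20. Of 22 listed genes of white cells and platelets 7 were tested, 4 higher and 1 lower, and 3 of the 7 had entered through day 6 alone. Ptprc, which encodes CD45, was at or under 0.0325 FPKM in all 6 libraries and Pf4 was listed at 0.

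Endothelial genes did not move as 1 group. Of 34 listed, 17 passed the filter, with 8 higher, 3 lower and a median of 0.57. Entry through day 6 alone held for 3 of the 17, Tal1 among them. Ecscr (1.91 ± 0.30), Sox17 (1.81 ± 0.22), Flt1 (1.57 ± 0.37) and Tal1 rose. Kdr, the VEGF receptor of vessel and blood progenitors, had 0.201, 0.0356 and 0.113 FPKM at day 3 and 2.04, 1.58 and 2.896 FPKM at day 6 (1.49). Kdr entered the test through day 6 alone as well and had to differ. Cdh5, the VE-cadherin gene that defines endothelium, did not pass the filter with 0.114, 0.0458 and 0.104 FPKM at day 3 and 0.944, 3.21 and 1.44 FPKM at day 6. Apln (-1.20 ± 0.17), Plvap (-1.10 ± 0.34) and Cd34 (-0.66 ± 0.17) were lower at day 6, and the Plvap call was lost without the library labelled KO day 6 replicate 3.

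Endoderm genes rose, in the same share (66.7%) of the extraembryonic and of the definitive list. In the list of yolk sac and other extraembryonic endoderm 18 of 27 tested genes were higher and 2 were lower, with a median of 1.89. Without the library labelled KO day 6 replicate 3, 21 were higher. Entry through day 6 alone held for 7 of the 27. Spink1, a serine protease inhibitor of endodermal epithelium, had 5.06, 5.33 and 5.895 FPKM at day 3 and 951, 814 and 129 FPKM at day 6 (6.18 ± 0.55, adjusted p 3.56e-08). Ttr, the thyroxine and retinol carrier of yolk sac and liver, had 2.498, 2.74 and 3.001 FPKM at day 3 and 487, 429 and 43.3 FPKM at day 6 (5.81 ± 0.67). Apom, an apolipoprotein, had 0.475, 0.507 and 1.16 FPKM at day 3 and 106, 82.6 and 5.68 FPKM at day 6 (4.54 ± 0.73), and Rbp4, the plasma retinol carrier, had 2.72, 1.88 and 4.01 FPKM at day 3 and 174, 156 and 7.73 FPKM at day 6 (4.04 ± 0.78). In each of the 4 the library labelled KO day 6 replicate 3 was lowest of its group and still above day 3. Without it the changes of Ttr, Apom and Rbp4 were 6.94, 5.81 and 5.46. Lrp2 (-1.40 ± 0.35) and Npr1 (-0.81 ± 0.17) fell. Afp, the fetal plasma protein of yolk sac, had 1.24, 0.0381 and 0.978 FPKM at day 3 and 7.48, 5.98 and 0.737 FPKM at day 6 and did not pass (adjusted p 0.119).

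In the list of definitive endoderm, which shares Spink1 and Foxa2 with the extraembryonic list, 12 of 18 tested genes were higher and 4 were lower (median 1.86). There 3 of the 18 had entered through day 6 alone. Krt8, Krt18 and Krt19 encode keratins of simple epithelium. Krt18 had 90.8, 80.3 and 86.7 FPKM at day 3 and 1238, 1057 and 784 FPKM at day 6 (3.54 ± 0.23), Krt8 had 104, 61.6 and 59.9 FPKM at day 3 and 980.0, 898 and 830.3 FPKM at day 6 (3.61 ± 0.22) and Krt19 had 41.4, 8.102 and 10.3 FPKM at day 3 and 276, 239.7 and 209.9 FPKM at day 6 (3.88 ± 0.47). The library labelled KO day 6 replicate 3 was close to the others for all 3. The members that fell were Trh, Sox2, Cdh1 and Epcam, of which Cdh1 and Epcam mark epithelium in general and Sox2 the stem cells. Cer1, a Nodal and Wnt antagonist of anterior endoderm, was listed at 0 in all 3 KO day 6 libraries and at 10.97, 5.07 and 6.86 FPKM in WT day 6 libraries. It did not pass the filter, which was set on the KO libraries, and its difference was not tested in the main fit.

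Trophoblast and placental genes included 14 higher and none lower of 20 tested (median 1.56), but this list shares Hand1, Cdx2, Krt8, H19 and further members with other lists. Entry through day 6 alone held for 5 of the 20. The defining placental genes Tpbpa, Prl3d1, Prl2c2 and Synb were listed at 0 in all 6 libraries. H19 (mm10 chromosome 7, 142575529 to 142578143), a maternally expressed imprinted non-coding RNA, had 73.9, 44.6 and 58.4 FPKM at day 3 and 5771, 4664 and 2283 FPKM at day 6 (6.07 ± 0.31, adjusted p 1.49e-11). It was the most abundant of the 24 genes in every day 6 library. Its imprinted neighbour Igf2, a growth factor gene, had 0.103, 0.0898 and 0.153 FPKM at day 3 and 7.58, 4.68 and 5.56 FPKM at day 6 (2.62 ± 0.25). Among 19 tested imprinted genes 9 rose and 3 fell. Peg10, a retrotransposon-derived gene of placenta, had 54.4, 42.7 and 30.1 FPKM at day 3 and 246, 325 and 689.7 FPKM at day 6 (3.18 ± 0.33), with the library labelled KO day 6 replicate 3 highest, and Peg3 changed by 2.89 ± 0.42. Grb10, a growth factor receptor adaptor, changed by -1.85 ± 0.17, the growth inhibitor Cdkn1c by -1.73 ± 0.25 and Snrpn by -1.52 ± 0.18.

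Contractile and matrix genes rose. Acta2, the smooth muscle actin gene (mm10 chromosome 19, 34241090 to 34255590), had 7.56, 2.16 and 5.55 FPKM at day 3 and 129.7, 217 and 99.5 FPKM at day 6 (4.66 ± 0.42, adjusted p 4.54e-08). Tagln, its usual companion, had 13.97, 6.33 and 7.47 FPKM at day 3 and 61.9, 106 and 125 FPKM at day 6 (3.28 ± 0.42), and Cald1 and Tpm1 changed by 2.99 ± 0.32 and 2.76 ± 0.21. Of 13 smooth muscle genes 8 rose, while Mcam (-1.50 ± 0.23) and Cnn1 (-1.27 ± 0.27) fell. Cardiac genes were at lower levels, with 10 of 13 tested higher and none lower, 7 of the 13 having entered through day 6 alone (median 1.68). Tnnc1, the slow skeletal and cardiac troponin C gene, had 0.564, 0.308 and 0.633 FPKM at day 3 and 57.99, 27.9 and 11.9 FPKM at day 6 (4.23 ± 0.49), and Hand2, a factor of heart and limb mesoderm, had 0.477, 0.219 and 0.124 FPKM at day 3 and 22.5, 14.01 and 3.95 FPKM at day 6 (3.25 ± 0.49). In both the library labelled KO day 6 replicate 3 was lowest of its group. Defining heart genes that did not pass the filter included Myl2, under 0.2 FPKM in all 6 libraries.

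The matrix list had 14 of 18 members higher and only Thy1 (-2.37 ± 0.23) lower, and 5 of the 18 had entered through day 6 alone. Col1a1, the fibrillar collagen gene, had 2.74, 1.45 and 1.48 FPKM at day 3 and 75.3, 86.1 and 48.3 FPKM at day 6 (4.61 ± 0.30), and Col5a1 had 1.78, 1.82 and 2.17 FPKM at day 3 and 34.6, 42.8 and 31.3 FPKM at day 6 (3.66 ± 0.19). Vim, the intermediate filament gene of mesenchyme, had 21.1, 12.9 and 11.2 FPKM at day 3 and 111, 129.9 and 136 FPKM at day 6 (3.02 ± 0.22). The 3 day 6 libraries were well above day 3 for all of them. In the basement membrane 11 of 16 rose, among them Col4a2 (3.20 ± 0.24), Col4a1 (2.69 ± 0.24), Sparc (2.39 ± 0.20) and Lamb2 (2.17 ± 0.23), and Nid2 changed by -1.50 ± 0.18. Of 24 genes of the cadherin switch 11 rose and 3 fell. Fn1 (2.50 ± 0.22), its receptor gene Itga5 (2.71 ± 0.18) and the transition factor Snai2 (2.63 ± 0.20) were higher. The epithelial genes Cdh1 (146, 168 and 149 FPKM at day 3 and 43.1, 56.4 and 105 FPKM at day 6; -1.26 ± 0.30), Esrp1 (-1.04 ± 0.19) and Epcam (-0.76 ± 0.22) were lower, and the Epcam call was lost without KO day 6 replicate 1.

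Neural genes were mostly lower or under the filter. Of 29 listed, 10 were tested, 7 lower and 2 higher (median -0.97). Tubb3, a neuronal tubulin, had 37.5, 23.9 and 17.4 FPKM at day 3 and 5.78, 9.02 and 5.42 FPKM at day 6 (-1.78 ± 0.34), while Irx3 (1.504 ± 0.31) and the adhesion gene Ncam1 (1.01 ± 0.31) rose. The Ncam1 call was lost without KO day 6 replicate 1 or 2. The neural factors Sox1 and Pax6 did not exceed 0.169 FPKM in any of the 6 libraries. In the surface ectoderm list, which shares the keratins named above, 7 of 15 rose and 1 fell, and the desmosome gene Dsp had 5.63, 1.52 and 2.67 FPKM at day 3 and 12.4, 13.5 and 30.6 FPKM at day 6 (2.21 ± 0.43).

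BMP signalling was the pathway list with the most members higher, 14 of 21 with none lower (median 1.65, and 1.42 without the library labelled KO day 6 replicate 3). Entry through day 6 alone held for 5 of the 21, Bmp2 and Nog among them, which had to differ. Among ligands, Bmp2 had 0.195, 0.163 and 0.226 FPKM at day 3 and 8.75, 12.6 and 35.9 FPKM at day 6 (3.83 ± 0.31), Bmp4 is given above, and Bmp5 and Bmp7 changed by 1.65 and 1.48. The receptor genes Bmpr1a and Bmpr2 did not pass (adjusted p 0.847 and 0.255). Inhibitors rose too: Smad6, an inhibitory SMAD, had 1.63, 0.822 and 0.502 FPKM at day 3 and 21.5, 21.1 and 9.48 FPKM at day 6 (3.17 ± 0.34), and Nog, a secreted antagonist, had 0.725, 0.152 and 0.432 FPKM at day 3 and 2.396, 2.97 and 8.99 FPKM at day 6 (1.86). The target Id3 had 9.93, 10.9 and 11.2 FPKM at day 3 and 86.7, 78.5 and 47.4 FPKM at day 6 (2.58). Id1, another target, had 91.2, 19.1 and 10.1 FPKM at day 3 and 174, 128 and 31.1 FPKM at day 6, and with a KO day 3 replicate 1 well above its group the change did not pass (1.71, adjusted p 0.0779).

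Nodal signalling moved in both directions, 5 higher and 6 lower of 18, with a median of -0.16 that turned to 0.12 after scaling to TPM. The ligand and co-receptor genes of the epiblast fell. Nodal itself had 11.9, 20.6 and 20.2 FPKM at day 3 and 3.53, 3.77 and 3.22 FPKM at day 6 (-2.005 ± 0.24), Gdf3, a related ligand, changed by -2.63 ± 0.31 and the antagonist Lefty1 by -2.42 ± 0.54. Smad3, a transducer, rose from 2.32, 2.29 and 1.598 to 11.2, 11.2 and 12.8 FPKM (2.06 ± 0.20). The inhibitory Smad7 (1.42 ± 0.29) and the processing enzyme gene Furin (1.34 ± 0.22) rose as well.

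Among 32 Wnt genes 12 rose and 7 fell, and 6 of the 32 had entered through day 6 alone. Wnt5a, a ligand of non-canonical signalling, had 0.0819, 0.0903 and 0.103 FPKM at day 3 and 6.797, 10.4 and 14.3 FPKM at day 6 (3.34 ± 0.22). Wnt4 (2.21 ± 0.20) and the antagonists Dkk1 (1.94 ± 0.20) and Frzb (1.90 ± 0.21) rose. Nkd2 (-1.55 ± 0.12), Sfrp2 (-1.45 ± 0.16), Fzd5 (-1.27 ± 0.29) and Znrf3 (-1.09 ± 0.21), of which Nkd2 and Znrf3 are feedback inhibitors, fell. In the FGF list 8 of 22 rose and 4 fell. Fgf3 had 1.08, 0.773 and 0.629 FPKM at day 3 and 20.5, 9.01 and 6.04 FPKM at day 6 (2.66 ± 0.40), Fgf15 had 1.66, 1.18 and 0.646 FPKM at day 3 and 8.48, 6.39 and 9.61 FPKM at day 6 (2.10 ± 0.24), and Fgf10 changed by 1.32 ± 0.21. Fgf4, the epiblast ligand, had 12.99, 7.26 and 6.39 FPKM at day 3 and 1.13, 0.627 and 0.948 FPKM at day 6 (-2.33 ± 0.38), and Etv5, an ERK-responsive factor, changed by -2.01 ± 0.34. Notch genes included 7 lower and none higher of 14 (median -0.64), or 3 lower when only the 6 libraries were fitted. Among the 7 were the ligands Dll1 and Jag2 (-1.88 ± 0.23) and the glycosyltransferase gene Mfng (-1.62 ± 0.25).

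Of 20 enzymes of threonine, serine and one-carbon metabolism 10 fell and 1 rose (median -0.51). Tdh, the threonine dehydrogenase of mouse stem cells, had 32.1, 38.3 and 33.97 FPKM at day 3 and 6.42, 3.48 and 4.14 FPKM at day 6 (-2.69 ± 0.39), and Cbs, which makes cystathionine, had 10.9, 13.4 and 12.5 FPKM at day 3 and 0.607, 0.454 and 0.668 FPKM at day 6 (-3.07 ± 0.19). Of 26 glycolysis and hypoxia genes 8 fell and 3 rose, or 9 and 1 without the library labelled KO day 6 replicate 3. Pdk1, the kinase that restrains pyruvate dehydrogenase, had 22.5, 19.6 and 16.6 FPKM at day 3 and 1.09, 1.43 and 2.59 FPKM at day 6 (-2.95 ± 0.19), and Ldhb changed by -1.82 ± 0.24. Among 41 cell cycle genes 13 fell and 3 rose, with a median of -0.27 that was 0.01 after scaling to TPM. Ccne1, the S-phase cyclin E gene, had 34.7, 66.3 and 38.9 FPKM at day 3 and 10.3, 9.66 and 13.4 FPKM at day 6 (-1.93 ± 0.27), and Ccnd3, a cyclin D gene, had 5.31, 6.22 and 4.102 FPKM at day 3 and 30.3, 26.3 and 14.1 FPKM at day 6 (1.93 ± 0.30).

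The AP-1 and immediate early list had 6 of 19 higher and none lower, or 5 higher and 3 lower without the library labelled KO day 6 replicate 3. Jdp2, an AP-1 repressor, had 1.84, 1.58 and 1.46 FPKM at day 3 and 5.29, 7.51 and 5.75 FPKM at day 6 (1.44 ± 0.19). Fos had 7.02, 12.2 and 12.8 FPKM at day 3 and 48.04, 64.4 and 35.8 FPKM at day 6 (2.11 ± 0.78, adjusted p 0.0407), a call that was lost without any one of KO day 3 replicates 1, 2 and 3 and KO day 6 replicates 1 and 2. The call of Ier2, another immediate early gene, was lost without any of the same 5 libraries, and that of Jun without KO day 3 replicate 1 or 2 or any KO day 6 replicate. The integrated stress response list had 3 of 19 higher and 3 lower (15.8% each), and 2 higher and 5 lower without the library labelled KO day 6 replicate 3. Its median of -0.11 was -0.35 without that library and turned to 0.16 after scaling to TPM. Xbp1, a factor of the unfolded protein response, rose (1.07 ± 0.22), while Ddit3 (-0.94 ± 0.28) and Ddit4 (-1.57 ± 0.60) were among the members that fell. The Ddit3 call was lost without KO day 3 replicate 3 or KO day 6 replicate 2. That of Ddit4 was lost without KO day 3 replicate 1 or KO day 6 replicate 1 or 2. Of 18 p53 targets 2 fell, Aen (-0.90 ± 0.23) and Gtse1 (-0.79 ± 0.16), and 6 fell without the library labelled KO day 6 replicate 3. In the MHC and interferon list 5 of 18 rose, led by the membrane protein genes Ifitm1 (2.31 ± 0.30) and Ifitm2 (1.62 ± 0.34) and by Isg15 (1.78 ± 0.25), and Psmb9 changed by -0.81 ± 0.17. Of 24 cholesterol synthesis genes 3 rose and 2 fell, no higher a share than over all genes, and 9 fell without the library labelled KO day 6 replicate 3. Ebp, a sterol isomerase, had 4.02, 4.06 and 3.55 FPKM at day 3 and 19.2, 17.1 and 11.7 FPKM at day 6 (1.78 ± 0.19), and Insig1, a sterol sensor, had 27.8, 36.9 and 33.1 FPKM at day 3 and 6.57, 8.002 and 26.7 FPKM at day 6 (-1.43 ± 0.37).

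Cytosolic ribosomal protein genes, 50 of them tested, gave no call in either direction. Rplp1, the most abundant, had 1974, 1875 and 1882 FPKM at day 3 and 5039, 2651 and 973 FPKM at day 6, and the day 6 libraries lay on both sides of day 3 (0.30 ± 0.51, adjusted p 0.683). The library labelled KO day 6 replicate 3 was below the other 2 of its group by a median of -1.14 over the list, and without it 15 members were higher and none lower. The median summed exon length of the list was 2011 bases, and the part of length in its values was not tested.

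**Figure D3:**
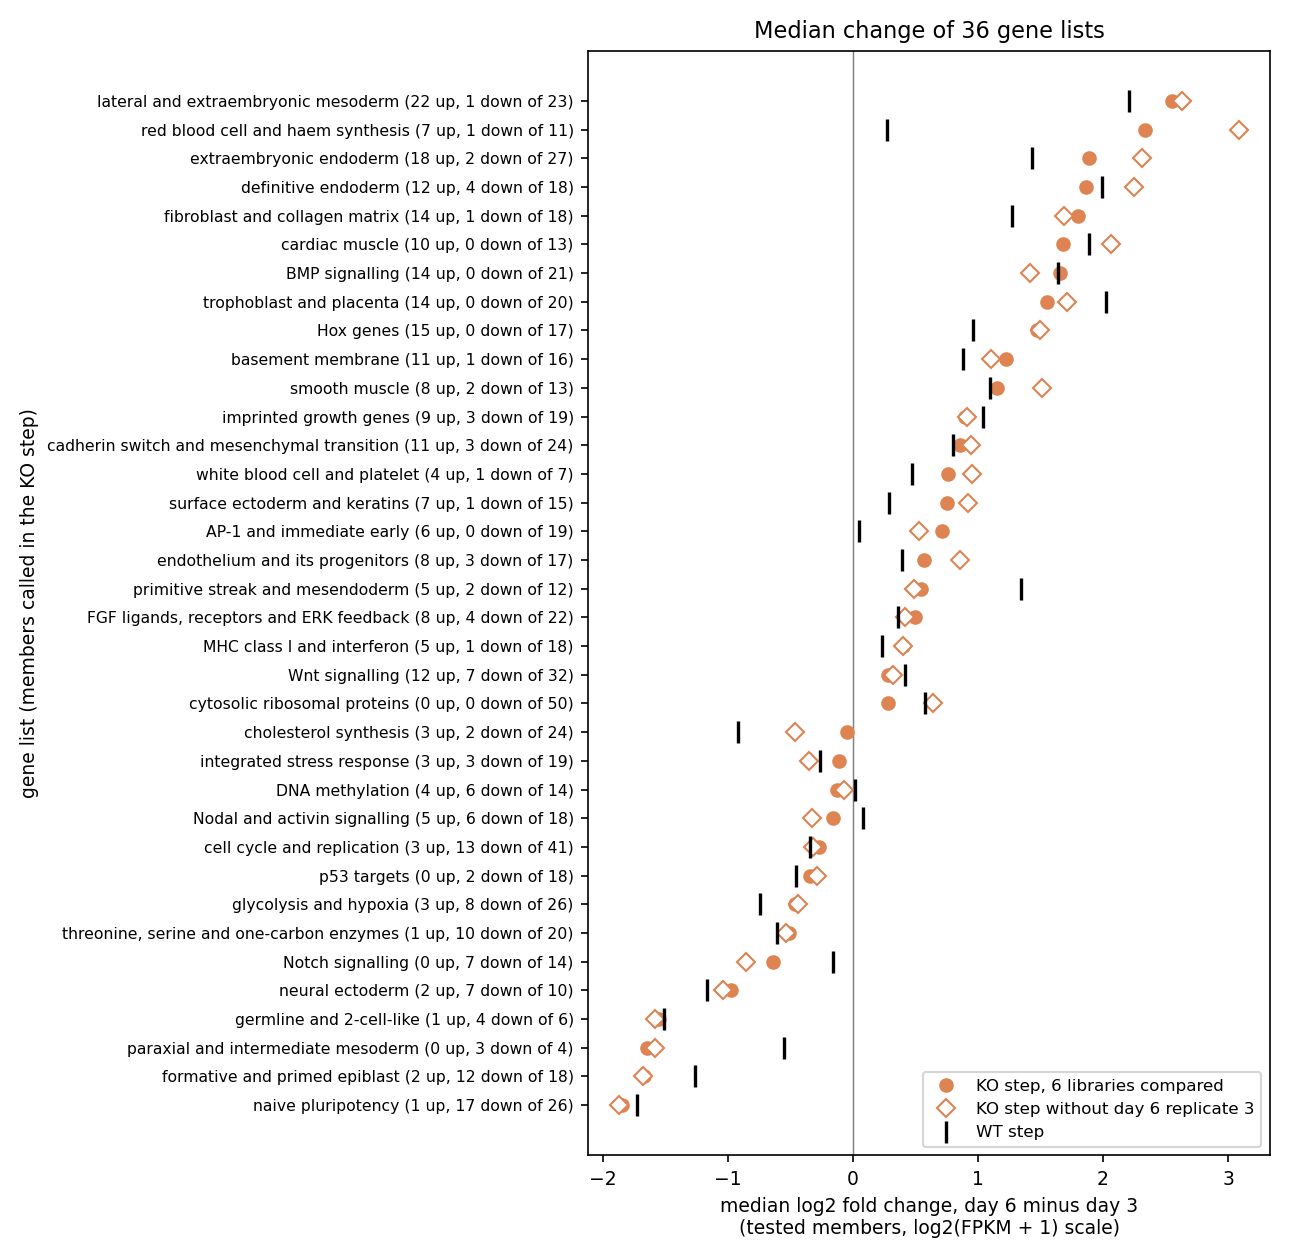
Median log2 change from day 3 to day 6 of the tested members of 36 gene lists, in KO cells (filled), in KO cells without the library labelled KO day 6 replicate 3 (open) and in WT cells (bar), with the number of members called higher (up) and lower (down) in KO cells. Lateral and extraembryonic mesoderm has the highest KO median, 2.55, and naive pluripotency the lowest, -1.84, and the WT bar of red cells and haem synthesis lies at 0.27 against 2.33 in KO cells.

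The same interval was then compared with WT cells, with which the KO step shares no library. Most of the step had the same direction: 4290 of the 4332 genes called in the KO step (99.0%) had the same sign in the WT step, against 86.7% of all tested genes, and Pearson's r of the 2 steps was 0.90 across the 12587 genes, which are not independent replicates. Pou5f1 changed by -3.65 in WT cells, Hand1 by 5.71, H19 by 5.69 and Spink1 by 5.19. The difference of the steps, tested as an interaction, passed for 5 genes (0.0397% of 12587), of which 4 (0.0318%) had a lower step in KO cells and 1 (0.00794%) a higher one. At an unadjusted p under 0.05 there were 400.

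Trh, the thyrotropin-releasing hormone precursor gene, differed most. KO libraries had 381, 424 and 291 FPKM at day 3 and 56.96, 20.7 and 21.8 FPKM at day 6, whereas WT libraries had 297, 363 and 362 FPKM at day 3 and 334, 202 and 524 FPKM at day 6. WT day 6 overlapped WT day 3, and all KO day 6 libraries were below every other of the 12. The difference of steps was -3.52 ± 0.55 on the log2 scale (SE, adjusted p 0.0283). Aplnr, the apelin receptor gene of early mesoderm, was higher at day 6 than at day 3 in both genotypes, and less so in KO cells. KO day 6 libraries had 5.29, 3.16 and 2.08 FPKM and WT day 6 libraries 24.8, 13.1 and 22.9 FPKM, after at most 0.179 FPKM at day 3, and the difference was -2.11 ± 0.36. In a count-based fit (voom on recovered reads) it was -0.34 and did not pass.

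Dll3, a Notch ligand gene of paraxial mesoderm, had KO levels of 1.18, 3.15 and 1.797 FPKM at day 3 and 0.842, 0.475 and 0.801 FPKM at day 6 and WT levels of 1.72, 2.99 and 1.97 FPKM at day 3 and 7.801, 3.78 and 8.05 FPKM at day 6, a difference of -1.98 ± 0.33. Sfrp1, a secreted Wnt antagonist, had KO levels of 4.12, 3.36 and 2.79 FPKM at day 3 and 3.78, 1.25 and 1.68 FPKM at day 6 and WT levels of 4.21, 3.58 and 3.98 FPKM at day 3 and 19.8, 13.1 and 17.7 FPKM at day 6, a difference of -2.36 ± 0.39. In WT cells both were higher in every day 6 library than at day 3, and in KO cells no day 6 library exceeded the day 3 maximum. Dusp2, a nuclear phosphatase of MAP kinases, went the other way. KO levels were 1.17, 1.12 and 1.21 FPKM at day 3 and 5.71, 6.14 and 5.48 FPKM at day 6 and WT levels 1.18, 1.66 and 0.918 FPKM at day 3 and 1.404, 1.66 and 1.83 FPKM at day 6, a difference of 1.41 ± 0.24. All 5 had an adjusted p of 0.0283 by limma, and none of the calls held when only the 12 libraries of both steps were fitted. Leaving out KO day 3 replicate 2 or 3, KO day 6 replicate 2, any WT day 3 replicate, or WT day 6 replicate 1 or 3 also left 0 calls, and leaving out KO day 3 replicate 1 left 1.

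Day 9 values are given as a description, with no test. Mean Sfrp1 was 40.4 ± 16.8 FPKM in KO and 29.3 ± 2.34 FPKM in WT cells (SD, n = 3), and Trh was 61.2 ± 5.89 and 24.7 ± 8.36 FPKM. Aplnr was 4.61 ± 2.22 FPKM in KO and 1.402 ± 0.362 FPKM in WT cells. Dll3 was 0.332 ± 0.196 FPKM in KO and 0.172 ± 0.117 FPKM in WT cells, and Dusp2 was 2.84 ± 0.632 and 0.9296 ± 0.386 FPKM. Hbb-bh1 was 131 ± 76.96 FPKM in KO and 158 ± 52.4 FPKM in WT cells, where both spreads overlapped. Acta2 reached 872 ± 170.2 and 747 ± 226 FPKM.

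**Figure D4:**
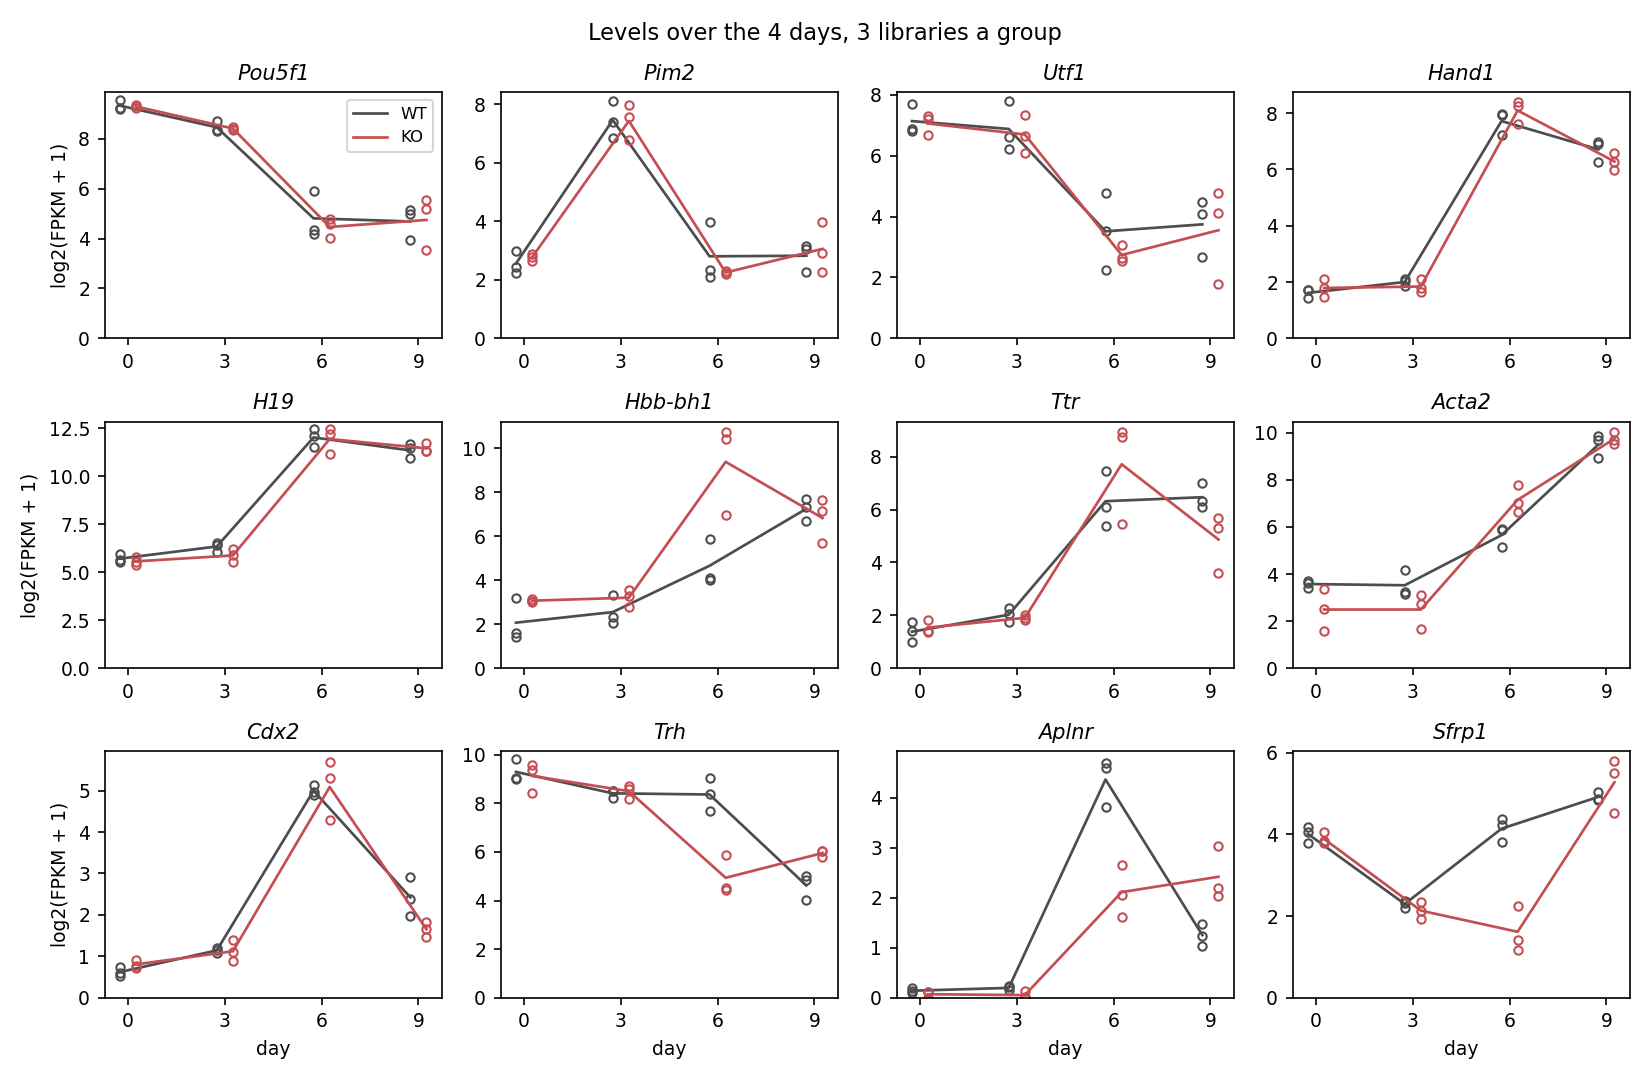
Levels of 12 genes in log2(FPKM + 1) at days 0, 3, 6 and 9 in WT (grey) and KO (red) cells, with 1 open circle per library and lines through the group means of the log2 values. Between days 3 and 6 both genotypes lose Pou5f1, Pim2 and Utf1 and gain Hand1 and H19. The difference of steps passed for Trh, Aplnr and Sfrp1, but not for Acta2 (adjusted p 0.292, limma) or Hbb-bh1 (adjusted p 0.413, limma). For Hbb-bh1 2 of the 3 KO day 6 libraries lie far above the third.

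The red cell genes differed most between the genotypes without the library labelled KO day 6 replicate 3, which had their lowest KO day 6 levels. Leaving out the lowest library raises their KO step, so the calls these genes gain in that fit are no support for a difference. WT libraries had 8.94, 3.09 and 3.95 FPKM at day 3 and 57.8, 15.1 and 16.1 FPKM at day 6 for Hbb-bh1, each below the lowest KO day 6 library. The difference of steps was 4.08 ± 1.06 with all libraries (adjusted p 0.413) and 5.27 ± 0.80 without that library (adjusted p 0.00339). In that fit 27 genes (0.215%) passed, 23 (0.183%) higher in the KO step and 4 (0.0318%) lower, and they included the 5 above. Leaving out replicate 3 of both KO and WT day 6 gave 21, of which 20 were among the 27.

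Dusp2 was 1 of the 23, and the other 22 included 6 globin genes and several other genes of red cells and platelets, named here after their values were seen. The globin genes were Hba-x (5.76), Hba-a1 (5.33), Hbb-bh1, Hbb-y (4.05), Hbb-bs (4.44) and Hbb-bh0 (6.38). Hbb-bh0 had 647, 607 and 28.5 FPKM in KO day 6 and 13.6, 4.59 and 8.89 FPKM in WT day 6 libraries, and Hbb-bs shares near-identical sequence with Hbb-bt. Alas2 had 9.296, 10.98 and 1.32 FPKM against 0.658, 0.764 and 0.286 FPKM, a difference of 2.81 ± 0.36 (adjusted p 7.30e-04). Tal1 (1.67), Itgb3 (2.00), Itga2b (1.31) and Fermt3 (1.84), an integrin activator of blood cells, were also among them. Gata4, a factor of heart and yolk sac endoderm, passed too (1.44). It was lower in KO cells at day 3, with 1.67, 1.45 and 1.65 FPKM against 3.28, 5.37 and 3.92 FPKM in WT libraries. At day 6 the genotypes overlapped, with 17.6, 19.1 and 8.38 FPKM in KO and 14.6, 9.81 and 15.6 FPKM in WT libraries. With all libraries none of these red cell and platelet genes passed, the nearest being Itgb3 at 1.68 (adjusted p 0.0774). The share of rRNA-type reads was 18.4%, 12.2% and 45.6% in the 3 WT day 6 libraries, and their part in the differences was not tested.

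**Figure D5:**
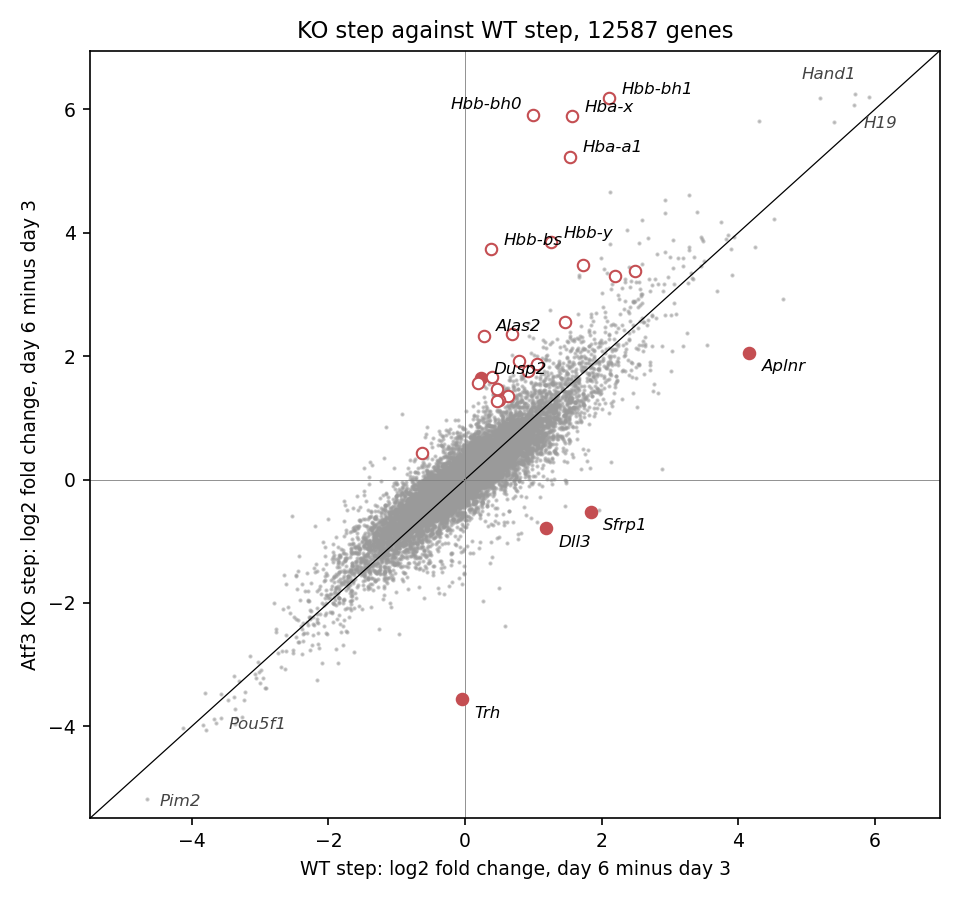
Log2 change from day 3 to day 6 in KO cells (vertical) against WT cells (horizontal) for 12587 genes, with the line of equal change. Filled circles are the 5 genes whose steps differ with all libraries, and open circles the other 22 that differ without the library labelled KO day 6 replicate 3, among which the globin genes lie farthest above the line.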

How the data were processed

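Poly(A)-selected RNA of 24 libraries was sequenced as paired 150-base reads on a NovaSeq 6000, per the labels' protocols. The authors deposited 1 table of FPKM values for 53465 genes. The submitters' processing notes name the mm10 build and, with no roles, HISAT2 2.2.1, featureCounts 2.0.1, R 4.1.0, Trimmomatic 0.39, DESeq2 1.30.1 and FastQC 0.11.9. Neither the FPKM formula nor the strand setting of the counting is given in those notes, so antisense partners cannot be told apart. With exon lengths of GENCODE vM21 (53360 IDs matched), 95.5% to 96.9% of values of at most 50 reads came out within 0.05 of a whole read. The scale of each library was that of a size factor over 15330 genes to within 0.0509%, so the deposited FPKM were not scaled by total reads.

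The gene lists, the named genes and the comparisons were chosen with earlier results of these data known. Values were tested as log2(FPKM + 1), which understates changes of low genes, with limma 3.58.1 in R 4.3.3 (trended empirical Bayes, 8 group means, 16 residual degrees of freedom over 24 libraries, prior degrees of freedom 4.24). Genes with at least 1 FPKM in at least 3 of the 6 KO day 3 and day 6 libraries were kept, and p-values were adjusted over 12587 genes (Benjamini-Hochberg, threshold 0.05). The KO step was tested as KO day 6 against KO day 3, and its difference from the WT step as an interaction. The text names Atf3, the 12 genes with the largest change in each direction (called, without overlap, at least 5 FPKM in the higher group, no predicted or small RNA genes), up to 8 genes in each direction for the interaction, and up to 4 called genes per direction and list. 1 list member among these is not reported here. Alternatives were TPM scaling, equal sums without rRNA-type genes, pseudocounts 0.1 and 5, no filter, a mean of at least 5 FPKM, voom on recovered reads, a replicate block, fewer libraries in the fit, each library left out, and removal of the length trend, the last chosen after seeing the data. The scripts were tested on simulated data with 200 changed genes. Tables used Python 3.11.15 (scipy 1.17.1, numpy 2.4.6, pandas 2.3.3), and plots matplotlib 3.10.9. Within KO day 3 and KO day 6, the groups checked, each pair of libraries differed by more than sampling noise. Same-numbered KO libraries of both days did not pair. Promoter sequences are from RefSeq (GRCm38.p6).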

Additional observations from a re-analysis of the deposited data

Results flagged for a closer look

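The step from day 3 to day 6 differed between KO and WT cells, by a test of the difference itself, for 5 genes. On the log2(FPKM + 1) scale the KO step was lower by -3.52 for Trh, -2.36 for Sfrp1, -2.11 for Aplnr and -1.98 for Dll3, and higher by 1.41 for Dusp2. Over the alternatives tried, the difference of Trh lay between -3.98 and -2.97 and that of Aplnr between -2.38 and -0.34, always in the same direction. Trh kept its call in 13 of 23 alternatives, Dll3 and Sfrp1 in 9 of 22, Aplnr in 7 of 22 and Dusp2 in 6 of 22. No cause of these differences was tested.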

How the results depend on the processing

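The number of genes called between KO day 3 and KO day 6 was 4332, 2264 with a mean of at least 5 FPKM (6811 genes tested) and 2341 when only the 6 libraries were fitted. With the length trend of each library removed it was 4567, of which 4062 were among the 4332, and the same 5 differences of steps passed. Leaving out 1 library gave 3058 to 6052 calls, the highest without the library labelled KO day 6 replicate 3. For the difference between the KO and WT steps the count was 5. It was 1 after scaling to TPM, 2 with a pseudocount of 0.1, 26 with no filter, 1 with a mean of at least 5 FPKM, 1 with voom, 0 with only the compared libraries, and 21 without replicate 3 of both KO and WT day 6, an alternative chosen after seeing the data. Leaving out 1 library gave 0 to 27. The cause of these shifts was not tested, apart from the smaller number of genes in the stricter filter.

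The correlation of deviations of same-numbered KO libraries of both days was -0.25, 0.18 and 0.12, and the numbers share nothing else in the labels. With the replicate block the counts were 4395 for the KO step and 2 for the difference. No library pair in the KO step was treated as matched.

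Of 179 named genes called in the KO step, 125 kept their call in every alternative that tested them. Scaling to TPM lost 44 of these calls, the 6 libraries alone 28, equal sums 12, no filter 9 and removal of the length trend 6. In 29 cases leaving out a single library ended the call. The log2 change of Rplp1, not called, was 0.30, and lay between -0.25 (without KO day 6 replicate 1) and 0.94 (without KO day 6 replicate 3) when 1 library was left out. The filter was set on KO libraries, so genes expressed in WT cells alone were not tested in the main fit. They entered only the fit with no filter, which held 32091 genes. Recovered reads per library limit genes near 1 FPKM.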
